A study of Mus musculus with 18 samples.

Results

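Hepatic stellate cells (HSC) are the vitamin A-storing pericytes of the liver sinusoid. The data compared here are those of HSC labelled as kept alone for 7 days, in Matrigel or on plastic. The 6 libraries were chosen by their labels (HSC, mono-culture, day 7, with the substrate as the difference) out of 18 in the series, 3 for each substrate, and every gene of the count table entered. Of 35667 genes in the table, 17020 passed the filter on low counts and were tested. The HSC of all groups came from healthy wild-type mice whose strain, sex and age the labels do not give, and no allele or agent separates the groups. A single growth protocol covers all samples, an equal mixture of DMEM with fetal bovine serum and AdvDMEM/F12 that carried the growth factors HGF, EGF, FGF10 and RSPO3 as well as gastrin, nicotinamide, N-acetylcysteine, N2 and B27. Matrigel cultures were sorted at day 7, and sorting is not stated for plastic, so Matrigel, the third dimension and the sort cannot be told apart. Whether a group's 3 libraries stem from different mice or wells is not labelled, so p-values reflect the spread among these libraries, which may be technical. Freshly isolated HSC (day 0, 3 libraries) and dTomato-tagged intrahepatic cholangiocyte organoids alone in Matrigel (ICO, 3 libraries) are quoted as reference levels.

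In healthy liver, HSC are quiescent: they store retinyl esters in lipid droplets, secrete growth factors and complement components, and carry receptors for vasoactive peptides. After injury, or on a stiff culture surface, they lose the droplets and become contractile, matrix-secreting myofibroblasts, a change known as activation. Stress fibres, focal adhesions and the transcriptional co-activators MRTF, YAP and TAZ carry the signal from a stiff surface to the nucleus. Matrigel is a soft basement membrane extract rich in laminin and collagen IV. The comparison sets both culture formats side by side at the same day of culture.

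Total estimated counts were 12820644 to 15973353 per library in Matrigel and 15430066 to 22158674 on plastic. Libraries of plastic correlated with each other at 0.978 to 0.981 and those of Matrigel at 0.943 to 0.966 (Pearson's r of log2 CPM across genes, which are not replicates), against 0.847 to 0.88 between the substrates. The libraries labelled HSC alone in Matrigel held organoid transcripts. The organoid share is the median over 15 cholangiocyte markers of the level relative to ICO. It was 35.6%, 12.9% and 4.05% for Matrigel replicates 1, 2 and 3, against 0.0218% to 0.15% on plastic. HSC libraries from co-culture with ICO held 28%, 15.3% and 41.8%, taken relative to co-cultured ICO. How organoid transcripts entered the libraries labelled HSC alone is not given. Subtraction of the share does not remove any effect of organoids on the HSC, which was not tested. All 30 cholangiocyte markers were called higher in Matrigel. After each library's share was subtracted, 25 of them were tested and 7 called. The share was itself set by cholangiocyte markers, so this fall is partly built in and does not test the subtraction. Macrophage markers were higher as well, 14 of 18: their summed level was 2899.8, 2934 and 3796 CPM in Matrigel replicates 1 to 3, 205, 159 and 641 CPM on plastic, and 1075, 1103 and 1135 CPM for fresh cells. Lyz2, lysozyme, made up most of that sum in Matrigel, at 1978, 2012 and 2769 CPM against 118, 57 and 277 CPM on plastic. Vsig4, a complement receptor of resident liver macrophages, was at 41.8, 58.5 and 47.2 CPM against 0, 0.48 and 8.18 CPM, whereas Clec4f, the lectin of Kupffer cells, was at or near 0 in both (0, 0.396 and 0.224 CPM against 0, 0 and 0 CPM) and at 239.6 ± 9.17 CPM (mean ± SD of 3 libraries, as for all day 0 values) at day 0. Hepatocyte markers were higher for 10 of 22, at sums of 313, 239.9 and 267 CPM against 122, 151 and 115 CPM, and markers of liver endothelium were lower for 11 and higher for 4 of 18 (2 higher without Matrigel replicate 3, plastic replicate 1 or plastic replicate 2). The summed level of the endothelial markers went against most of these calls. It was 1168, 1431 and 1805 CPM in Matrigel and 1099, 1035 and 900 CPM on plastic. In bulk libraries fewer cells of a type and less RNA per cell cannot be told apart. For these reasons every count below was also computed without Matrigel replicate 1, after subtraction of the organoid share, and with Matrigel replicate 3 alone, the library with the smallest share, whose spread is then assumed to equal that of the other groups. Where one of these settings moved a list's count by more than 1.5 times, its count is given beside it.

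**Figure D1:**
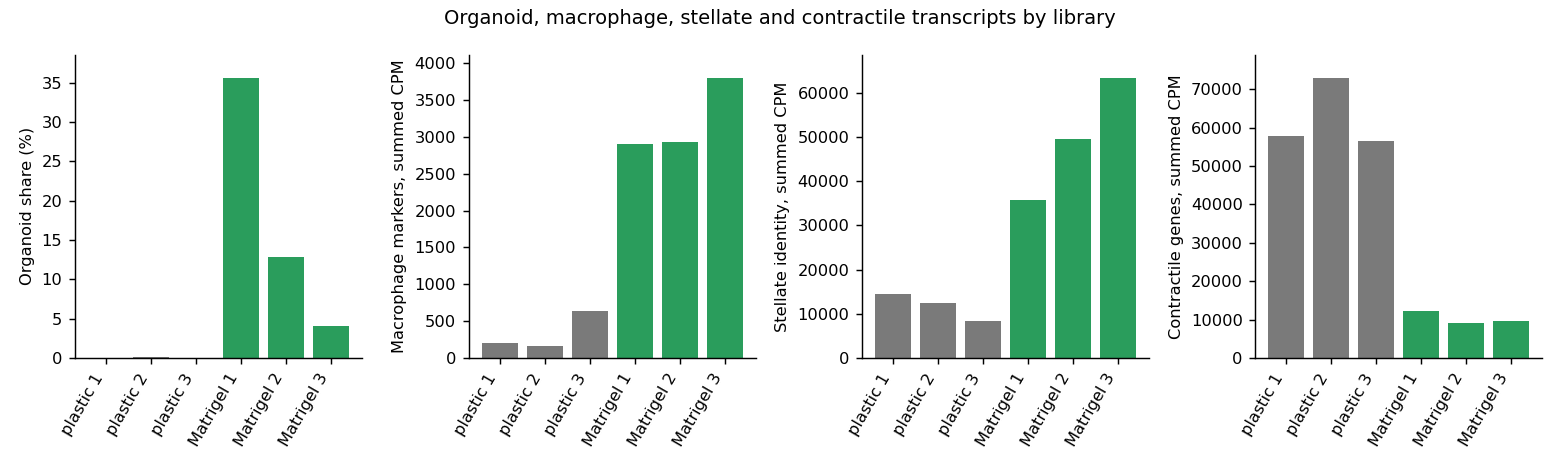
Organoid share in percent and summed CPM of the macrophage, stellate identity and contractile lists for each of the 6 libraries (bars, 1 library each; plastic grey, Matrigel green). The organoid share falls from 35.6% to 4.05% over the Matrigel libraries, whereas the contractile sum is 12210.2, 9148 and 9619.6 CPM in them and 57898, 72913 and 56632 CPM on plastic.

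Levels are quoted in CPM, counts scaled to the size of each library with TMM factors, and a log2 change is Matrigel minus plastic as fitted by edgeR's quasi-likelihood test, with its standard error (SE) and Benjamini-Hochberg adjusted p over the 17020 genes. A gene was called at an adjusted p under 0.05. The median log2 change over all genes tested was 0.14. Of these genes 29.9% (5081) were called higher and 25.2% (4283) lower in Matrigel, 55% in all, and 63.4% had groups that did not overlap, and the counts in the lists below are to be read against these shares. Without Matrigel replicate 1, 4851 genes were called higher and 4378 lower, and 4515 and 3999 of the original calls remained. Subtraction of the organoid share left 4258 higher and 4146 lower, of which 3917 and 3792 were original calls, and turned the sign of 134 genes that had been called higher and of 0 that had been called lower. With Matrigel replicate 3 alone, 3362 and 3426 genes were called.

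**Figure D2:**
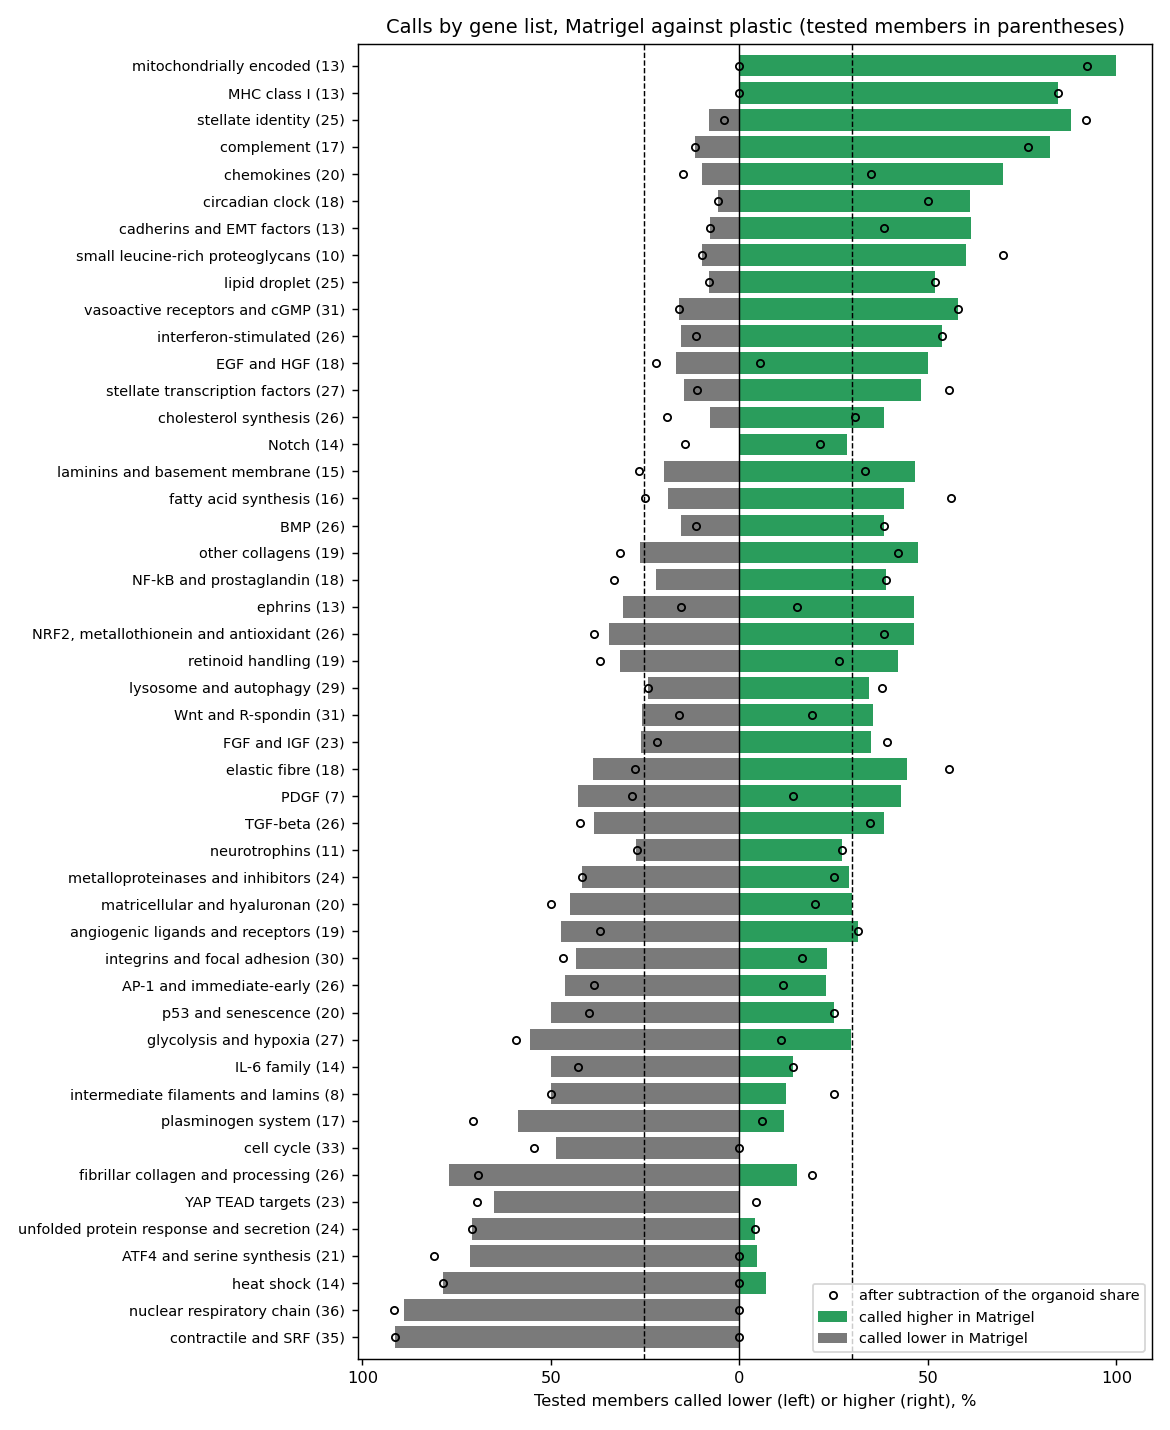
Share of tested members called higher (green, right) or lower (grey, left) in Matrigel for each gene list, in percent, with open circles for the counts after subtraction of the organoid share. Dashed lines mark the shares over all genes tested, 29.9% higher and 25.2% lower.

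The contractile apparatus built on actin had the lowest median of the pathway lists examined. Of 35 tested genes for smooth muscle actin, its partners and their regulators SRF and MRTF, 32 were lower in Matrigel and 0 higher, with a median log2 change of -2.23; the count was 32 without Matrigel replicate 1, 32 after subtraction and 31 with replicate 3 alone. Acta2, smooth muscle alpha-actin and the usual marker of activation, was at 68.4, 0.462 and 3.75 CPM in Matrigel replicates 1 to 3 and at 3952, 5288 and 4021 CPM on plastic, with 6.13 ± 2.23 CPM at day 0. Tagln, an actin cross-linking protein, stood at 21.3, 0.857 and 2.69 CPM against 1121, 1791 and 1048 CPM. Myl9, the regulatory light chain of myosin, stood at 32, 2.77 and 1.9 CPM against 1686, 1853 and 1546 CPM. In all 3 genes Matrigel replicate 1 held the highest of the Matrigel values, still far under the lowest plastic library. The fitted log2 changes were -7.59 (SE 1.43, adjusted p = 0.0016) for Acta2, -7.40 (SE 0.98, adjusted p = 0.00018) for Tagln and -7.20 (SE 1.00, adjusted p = 0.00026) for Myl9. Without replicate 1 they were -11.04, -9.56 and -9.57. Calponin Cnn1 (3.54, 0.264 and 0 CPM against 159.7, 182 and 191 CPM), enteric smooth muscle actin Actg2 (1.34, 0.0659 and 0.056 CPM against 48.6, 38.7 and 52 CPM) and the smooth muscle myosin heavy chain Myh11 (0.602, 0.0659 and 0.672 CPM against 23.2, 20.8 and 23.6 CPM) showed the same separation. Among the regulators, Mrtfa fell by 1.58 on the log2 scale (SE 0.20, adjusted p = 2.7e-05), while Srf itself did not pass the test (5.01, 5.74 and 5.88 CPM against 7.33, 11.2 and 7.04 CPM, log2 change -0.68, adjusted p = 0.058).

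SRF binds the CArG box. Searched on both strands of the 250 bases upstream of the annotated starts, a CArG box was found in 7 of 31 list members with a promoter entry (22.6%), against 1.47% of all 32851 promoters, 1.53% of genes called lower and 1.16% of genes called higher. The list was drawn up around SRF, so its share does not test a role of SRF in the change. Acta2 and Cnn1 held no box, whereas Srf, which was not called, held 2. The upstream sequences of Myl9 and of Vcl, the focal adhesion protein vinculin, are shown because their genes fell and hold the box. They are RefSeq sequences of build GRCm38.p6, read 5′ to 3′ on the strand of the gene with the box in capitals, Myl9 at chr2:156775214-156775463 (plus strand) and Vcl at chr14:20929148-20929397 (plus strand). A match describes these letters and is not evidence of binding.
Myl9: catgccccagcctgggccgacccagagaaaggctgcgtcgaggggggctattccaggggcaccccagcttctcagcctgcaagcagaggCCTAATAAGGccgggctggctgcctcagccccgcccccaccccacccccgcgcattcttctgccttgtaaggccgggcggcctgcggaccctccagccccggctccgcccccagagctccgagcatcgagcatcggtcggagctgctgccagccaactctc
Vcl: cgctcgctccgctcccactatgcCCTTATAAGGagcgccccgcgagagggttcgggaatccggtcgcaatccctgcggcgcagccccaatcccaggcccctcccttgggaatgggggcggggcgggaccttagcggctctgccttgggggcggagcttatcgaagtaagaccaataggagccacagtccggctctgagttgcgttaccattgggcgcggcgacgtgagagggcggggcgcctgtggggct

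Vcl was at 118, 92.1 and 105 CPM in Matrigel and at 383, 414 and 377 CPM on plastic, without overlap. Among 30 integrin and focal adhesion genes, 13 were lower and 7 higher, with 3 higher for Matrigel replicate 3 alone. The fibronectin receptor chains were among those that fell. Itga5 was at 38.2, 23.1 and 36.3 CPM against 368, 353 and 432 CPM (log2 change -3.62, SE 0.24, adjusted p = 1.9e-07). Itga4 was at 4.01, 4.75 and 4.2 CPM against 62.9, 65.1 and 72.7 CPM. Their partner Itgb1 was at 677, 597 and 685 CPM against 2904, 2728 and 3056 CPM (log2 change -2.21, SE 0.15, adjusted p = 1.8e-07). No Matrigel library reached a plastic one in any of these chains. Itga8, the nephronectin receptor of pericytes, rose (95.7, 138 and 123 CPM against 42.6, 35.6 and 25.9 CPM, log2 change 1.72, SE 0.23, adjusted p = 4.9e-05), whereas the collagen receptor Itga1 (316, 443 and 410.0 CPM against 520.1, 504 and 397 CPM) overlapped between the substrates.

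YAP and TAZ act with TEAD factors on growth and adhesion genes. Of 23 pathway members and targets, 15 were lower and 0 higher in Matrigel (median log2 change -1.17), and 16 lower and 1 higher without Matrigel replicate 1, after subtraction and with Matrigel replicate 3 alone. Yap1 itself did not pass the test (27, 36.3 and 32.1 CPM against 27.3, 34 and 26.8 CPM, log2 change 0.06, adjusted p = 0.8), while Wwtr1, which encodes TAZ, fell by 1.17 and Tead1 fell by 1.87 on the log2 scale (SE 0.20 and 0.27, adjusted p = 0.00025 and 9.9e-05). Ccn2, the connective tissue growth factor, was at 302, 114 and 86.4 CPM against 4430.1, 5542 and 4069 CPM. Its Matrigel values ranked as the organoid shares do, and ICO held 932 ± 114 CPM (mean ± SD of 3 libraries), so the log2 change of -4.87 became -8.12 after subtraction. Ankrd1, a muscle ankyrin repeat protein, was at 139.5, 99.4 and 18 CPM against 600.3, 653 and 793 CPM and likewise at 655 ± 20.7 CPM in ICO. The intermediate filaments split: vimentin Vim (215, 220.4 and 271 CPM against 514, 679 and 595 CPM) and nestin Nes (18.8, 13.1 and 6.27 CPM against 112, 146 and 119.5 CPM) fell, and Gfap, the filament of quiescent rat and mouse HSC, rose (9.9, 11.9 and 14.3 CPM against 0.462, 1.3 and 0.0601 CPM, log2 change 4.16, SE 0.51, adjusted p = 2.7e-05).

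**Figure D3:**
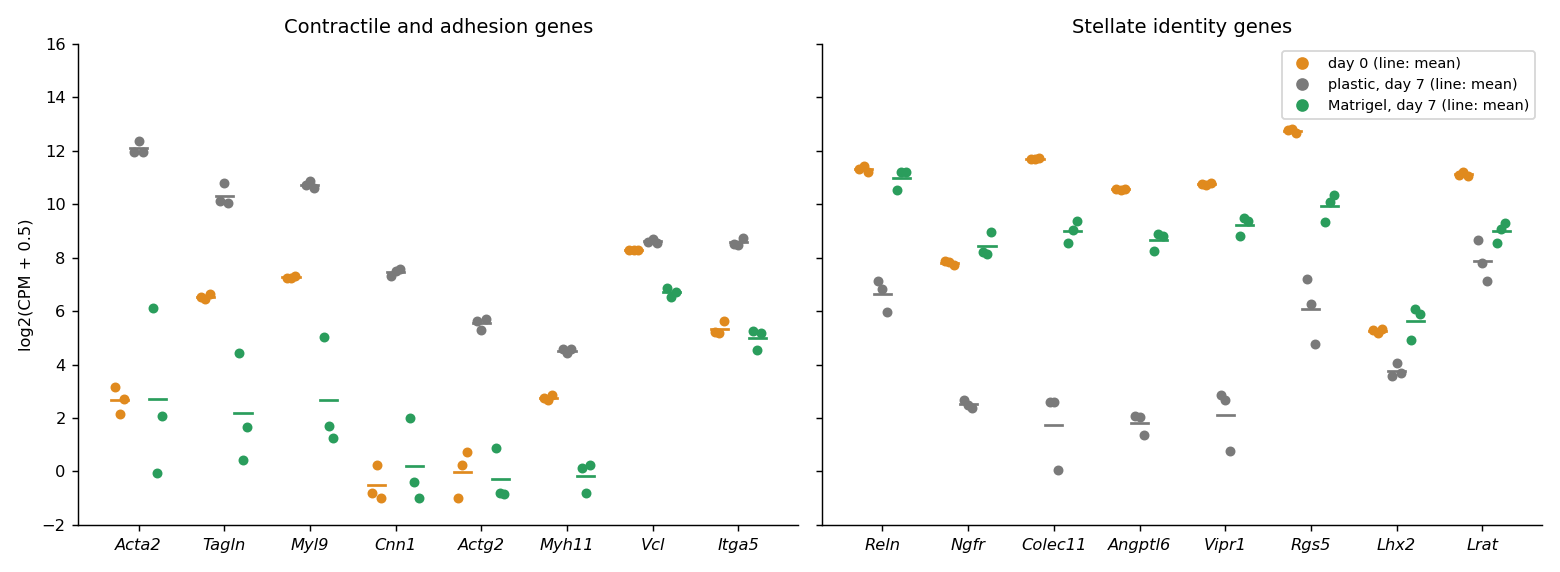
Level of 8 contractile or adhesion genes (left) and 8 stellate identity genes (right) in each library on a log2(CPM + 0.5) axis, with 3 libraries each for day 0 (orange), plastic (grey) and Matrigel (green). Matrigel points lie below all plastic points for the left-hand genes, and above them for the right-hand genes other than Lrat, where 1 plastic library lies among them.

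Genes that mark the stellate cell were mostly higher in Matrigel. Of 25 identity markers, 22 were higher and 2 lower (median log2 change 2.85), with 23 higher after subtraction, 22 with Matrigel replicate 3 alone, and 1 lower in both of these and without Matrigel replicate 2. Their summed level was 35702, 49586 and 63306 CPM in Matrigel and 14468, 12531 and 8498 CPM on plastic, against 131856, 124844 and 115855 CPM at day 0, so that both cultures lay under the fresh cells. Colec11, a collectin secreted by HSC, was at 375, 524 and 658 CPM against 5.54, 5.57 and 0.541 CPM, with 3327 ± 51.2 CPM at day 0 (log2 change 6.99, SE 0.64, adjusted p = 9.1e-06). Angptl6, an angiopoietin-like secreted factor, was at 305, 479 and 453 CPM against 3.7, 3.65 and 2.04 CPM. Ngfr, the low-affinity neurotrophin receptor, was at 295, 279.7 and 499.6 CPM against 5.87, 5.04 and 4.75 CPM, and at 223 ± 11.1 CPM at day 0 (log2 change 6.05, SE 0.36, adjusted p = 2e-07). All Matrigel libraries exceeded all plastic libraries in these genes, and for Ngfr they exceeded the day 0 mean as well. Plastic replicate 3 stood apart from the other plastic libraries in several identity genes. It held the lowest level of Cygb (161, 101 and 10.6 CPM in plastic replicates 1 to 3, 635, 793 and 1046 CPM in Matrigel) and of Adamtsl2 (139, 83.1 and 1.68 CPM, and 953, 1194 and 1420.0 CPM in Matrigel). Without plastic replicate 3 the log2 change of Cygb moved from 3.12 to 2.58 and that of Adamtsl2 from 3.93 to 3.34.

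Members that did not follow were the filament desmin, which fell (Des, 82, 84.1 and 104 CPM against 256, 339 and 358 CPM, log2 change -1.87, SE 0.19, adjusted p = 4.4e-06), and the PDGF receptor Pdgfrb (192, 208 and 256 CPM against 317, 330.0 and 333 CPM), whose log2 change of -0.63 was called, but not after subtraction (log2 change -0.32), with Matrigel replicate 3 alone (-0.40) or without Matrigel replicate 2 (-0.60). Among the transcription factors of the lineage, Lhx2 (29.9, 66.8 and 58.8 CPM against 11.6, 16.4 and 12.2 CPM, log2 change 1.90, SE 0.30, adjusted p = 0.00021) and Tcf21 (471, 660.5 and 769.7 CPM against 88.7, 116 and 97.6 CPM, log2 change 2.60, SE 0.20, adjusted p = 4.6e-07) rose. Hand2 (32.8, 65.8 and 57 CPM against 33, 33 and 36.7 CPM) and Foxf1 (51.6, 94.5 and 82.3 CPM against 54.7, 63.2 and 55.5 CPM) did not pass the test (adjusted p = 0.052 and 0.17). Hand2 passed it without Matrigel replicate 1, at a log2 change of 0.78. Of 27 such factors 13 were higher and 4 lower (2 lower without Matrigel replicate 2, plastic replicate 2 or plastic replicate 3), the latter including Prrx1 (4.61, 6.26 and 4.48 CPM against 15, 13 and 17.6 CPM), a mesenchymal homeobox factor.

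Genes of vitamin A handling moved in both directions. Of 19 genes of retinoid handling, 8 were higher and 6 lower, close to the shares over all genes, and 5 were higher after subtraction and 4 with Matrigel replicate 3 alone. Lrat, which esterifies retinol for storage, was at 377, 545 and 632 CPM in Matrigel and 405, 223 and 139 CPM on plastic, where replicate 1 lay above the lowest Matrigel library, against 2244 ± 128 CPM at day 0. Its log2 change of 0.96 (SE 0.37, adjusted p = 0.044) was not called without Matrigel replicate 2 (0.92), Matrigel replicate 3 (0.74), plastic replicate 2 (0.83) or plastic replicate 3 (0.65). Genes for making, sensing and clearing retinoic acid were among the lower ones. Aldh1a1, which makes retinoic acid from retinal, was at 70.0, 66.9 and 75.9 CPM against 283, 309 and 267 CPM (log2 change -2.07, SE 0.22, adjusted p = 6.1e-06). Rarb, a retinoic acid receptor that is itself induced by retinoic acid, was at 27.6, 35.9 and 46.9 CPM against 250.4, 242 and 289 CPM (log2 change -2.88, SE 0.22, adjusted p = 4.9e-07). Cyp26b1, which degrades retinoic acid and is also induced by it, was at 1.2, 0.132 and 0.056 CPM against 49.7, 59.2 and 61.3 CPM, a log2 change of -7.03 (SE 0.55, adjusted p = 8.6e-07) that became -9.22 without Matrigel replicate 1. None of these 3 genes overlapped between the substrates, and Cyp26b1 was nearly absent from Matrigel replicates 2 and 3. The heterodimer partner Rxra rose (101, 151 and 147 CPM against 26.7, 40.9 and 21.7 CPM, log2 change 2.10, SE 0.24, adjusted p = 1.6e-05).

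Lipid genes were more often higher than lower, 13 and 2 of 25 (median log2 change 0.97), with 1 lower for Matrigel replicate 3 alone. Pparg, the fat-storage receptor lost on activation, was listed at 3.48, 2.44 and 2.18 CPM in Matrigel and 0, 0.048 and 0.241 CPM on plastic, a low level in both. Fabp4, a fatty acid carrier, was at 19.8, 6.33 and 74.4 CPM against 2.05, 0.865 and 3.85 CPM, with Matrigel replicate 3 far above the other libraries. Abhd5, the co-activator of droplet lipolysis, fell (29.2, 25.6 and 22.7 CPM against 72.9, 55 and 67.8 CPM, log2 change -1.40, SE 0.20, adjusted p = 6.6e-05). The droplet coat Plin2 (266, 329 and 327 CPM against 342, 339 and 421 CPM) and the lipase Pnpla2 (44.9, 28.2 and 37.6 CPM against 29.7, 37 and 34.3 CPM) overlapped or nearly so and did not pass the test (adjusted p = 0.054 and 0.75). Macrophages also express Pparg and Fabp4, and their summed markers, given above, were higher in the same libraries. Their part in these values was not tested.

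Receptors through which HSC answer vasoactive peptides were among the genes that rose. Of 31 receptors, RGS regulators and cGMP pathway genes, 18 were higher and 5 lower (median log2 change 1.22), with the counts 18 and 5 again after subtraction. Vipr1, the receptor of vasoactive intestinal peptide, was at 453, 709 and 661 CPM against 6.86, 5.86 and 1.2 CPM, with 1737 ± 55.8 CPM at day 0 (log2 change 6.97, SE 0.60, adjusted p = 5.8e-06). Rgs5, a brake on G-protein signals in pericytes, was at 646, 1078 and 1304 CPM against 148, 76 and 26.8 CPM. Ednra, an endothelin receptor, was at 241, 308 and 418 CPM against 90.6, 61.6 and 32.1 CPM (log2 change 2.33, SE 0.33, adjusted p = 0.00013). Each Matrigel library lay above each plastic library in these genes, and plastic replicate 3 was the lowest of all. The angiotensin receptor Agtr1a rose less (700.0, 994 and 1147 CPM against 436, 387 and 311 CPM, log2 change 1.27, SE 0.21, adjusted p = 0.00021). The nitric oxide receptor subunit Gucy1a1 did not pass the test (adjusted p = 0.87). Adm, the vasodilator peptide adrenomedullin, fell, with 157, 168 and 169 CPM against 1408, 1517 and 1522 CPM (log2 change -3.22, SE 0.13, adjusted p = 9e-09). Bdnf, a neurotrophin, was at 8.36, 3.49 and 2.69 CPM against 294, 361 and 351 CPM (log2 change -6.19, SE 0.34, adjusted p = 1.2e-07), the reverse of the direction of the receptor Ngfr.

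Fibrillar collagen genes and their processing enzymes were lower in Matrigel, 20 of 26, with 4 higher (median log2 change -1.30) and 18 lower after subtraction. Without Matrigel replicate 3, 2 of them were higher. Col1a1, the main chain of collagen I, was at 133, 90.3 and 137 CPM against 862, 858 and 1029.7 CPM (log2 change -2.99, SE 0.22, adjusted p = 3.7e-07). Its partner chain Col1a2 was at 239, 259.8 and 321 CPM against 481, 502 and 485 CPM (log2 change -0.90, SE 0.18, adjusted p = 0.00092). Lox, which cross-links collagen, was at 8.96, 1.71 and 7.17 CPM against 285, 271 and 265 CPM, with 2.26 ± 0.282 CPM at day 0 (log2 change -5.58, SE 0.48, adjusted p = 6e-06). The Matrigel values of all 3 genes lay under the plastic values, and those of Col1a1 under or near the day 0 mean of 160.0 ± 6.57 CPM. Col3a1 was called lower by a small margin (log2 change -0.60, adjusted p = 0.049), and the call was lost without Matrigel replicate 1 (-0.57) or replicate 2 (-0.54), without plastic replicate 1 (-0.48) or replicate 2 (-0.65), and after subtraction (-0.28). The collagen chaperone Serpinh1 fell by 1.71 on the log2 scale (SE 0.20, adjusted p = 1.5e-05), the procollagen enhancer Pcolce did not pass the test (adjusted p = 0.71), and Loxl1, a cross-linker of elastin, rose (64.1, 95.7 and 110.0 CPM against 51.1, 38.6 and 26.3 CPM, log2 change 1.16, SE 0.28, adjusted p = 0.0041).

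Other matrix families held genes that rose. The beaded-filament collagen VI chains rose, Col6a1 from 102, 97.9 and 80.5 CPM on plastic to 583, 873 and 944 CPM in Matrigel (log2 change 3.04, SE 0.20, adjusted p = 1.5e-07) and Col6a3 from 14.7, 12.5 and 2.17 CPM to 154, 213 and 246 CPM. Col8a1, a short-chain collagen of remodelling vessels, fell from 288, 323 and 282 CPM to 5.28, 0.593 and 1.29 CPM (log2 change -7.04, SE 0.66, adjusted p = 1.6e-05). Small leucine-rich proteoglycans, which regulate collagen fibril width, were higher for 6 of 10 and lower for 1. Lum was at 5966, 7759 and 10306 CPM against 2111, 1348 and 493 CPM (log2 change 2.55, SE 0.45, adjusted p = 0.00057) and Prelp at 1749.7, 2374 and 3091 CPM against 624, 585 and 302 CPM. Plastic replicate 3 was lowest in both, and no Matrigel library overlapped plastic. Ogn was the member that fell (3.68, 6.79 and 7.22 CPM against 95.8, 106 and 86 CPM), and biglycan Bgn overlapped between the substrates (adjusted p = 0.57). Of the elastic fibre genes Ltbp4, a latent TGF-beta binding protein of elastic fibres, was at 224, 339 and 355 CPM against 9.77, 10.4 and 4.51 CPM (log2 change 5.16, SE 0.31, adjusted p = 1.2e-07). Its relative Ltbp1 was at 13.7, 12.6 and 18.9 CPM against 85.3, 72.3 and 97.4 CPM (log2 change -2.55, SE 0.21, adjusted p = 6.3e-07), so the pair crossed, and the microfibril gene Fbn1 fell with Ltbp1 (39.1, 43.3 and 66.1 CPM against 189, 219 and 159 CPM).

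A second crossing pair was Sparc and Sparcl1, related secreted glycoproteins. Sparc was at 992, 884 and 1185 CPM in Matrigel and 6029, 7393 and 6175 CPM on plastic (log2 change -2.73, SE 0.21, adjusted p = 4.3e-07), and Sparcl1 at 215, 344 and 356 CPM against 11, 7.64 and 5.83 CPM (log2 change 5.17, SE 0.31, adjusted p = 1.1e-07). Tnc, the injury-site glycoprotein tenascin C, was at 50.1, 7.58 and 6.38 CPM against 1828, 1709 and 2096 CPM. Matrigel replicate 1 was again the highest Matrigel library, while ICO held only 2.43 ± 0.694 CPM of Tnc. The log2 change of -6.53 (SE 0.80, adjusted p = 0.0001) became -8.13 without Matrigel replicate 1 and -6.00 after subtraction. Of 15 laminin and basement membrane genes 7 were higher and 3 lower, the latter being Nid1, Nid2 and Lamc1. After subtraction 5 were higher and 4 lower. Their summed level was 1405, 1368 and 1365 CPM in Matrigel and 3243, 3149 and 3470 CPM on plastic. ICO held 1614, 1583 and 1600 CPM, more than any Matrigel library. The nidogens fell, Nid2 from 1286, 1327 and 1512 CPM to 36.2, 17.3 and 20.3 CPM (log2 change -5.87, SE 0.38, adjusted p = 3.2e-07) and Nid1 from 791, 847 and 817 CPM to 229.7, 245 and 278 CPM. Col4a1 fell with them (316, 238 and 301 CPM against 1644, 2315 and 1901 CPM). The laminin chain Lama1 rose (26.1, 29.1 and 36.6 CPM against 12.3, 8.98 and 7.76 CPM, log2 change 1.61, SE 0.23, adjusted p = 6.7e-05), Lama2 overlapped (adjusted p = 0.29) and Lamc1 fell (88.6, 101 and 111 CPM against 188, 173 and 220.2 CPM). Matrigel supplies laminin, collagen IV and nidogen as protein; the counts are of mouse transcripts. Fibronectin Fn1 was called higher (457, 319.5 and 176 CPM against 147, 109 and 84.9 CPM), but ICO held 1497 ± 71.4 CPM and the log2 change of 1.42 became -0.36 after subtraction, with no call.

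Of 24 metalloproteinases and inhibitors, 7 were higher and 10 lower. The largest rise among them was that of Adamts15, a secreted metalloproteinase, at 27.4, 25 and 33.7 CPM against 5.48, 3.6 and 1.5 CPM (log2 change 2.97). Mmp3, a stromelysin, was at 18.1, 7.19 and 14.6 CPM in Matrigel and 404, 481 and 456 CPM on plastic (log2 change -5.13, SE 0.43, adjusted p = 3.8e-06). Mmp13, the main mouse interstitial collagenase, was at 4.55, 0.989 and 1.46 CPM against 156, 151 and 238 CPM (log2 change -6.36, SE 0.50, adjusted p = 2.6e-06). Mmp10, a second stromelysin, was at 8.09, 0.198 and 0 CPM against 391, 347 and 491 CPM. These 3 were low at day 0 as well, at 3.59 ± 1.42 CPM for Mmp3 and 2.28 ± 0.381 CPM for Mmp13, with Mmp10 at 0 in every day 0 library. Mmp2, a gelatinase, was at 368, 471 and 704 CPM against 128, 118 and 105 CPM (log2 change 2.08, SE 0.25, adjusted p = 2e-05), and its membrane activator Mmp14 did not pass the test (adjusted p = 0.68). The inhibitors diverged: Timp1 fell (33.6, 9.1 and 24.2 CPM against 631, 649.8 and 585 CPM, log2 change -4.86, SE 0.46, adjusted p = 9.1e-06) and Timp2 rose (165, 255 and 239 CPM against 112, 139 and 96.6 CPM, log2 change 0.87, SE 0.17, adjusted p = 0.00086).

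The upstream sequences of Mmp3, Mmp10 and Mmp13 are shown because the 3 genes lie on chromosome 9, fell in Matrigel and each hold the AP-1 motif TGACTCA, read on both strands, close to the start. The motif was in 4 of 17 list members with an entry. The other holder was Mmp12, which was not called. Beyond the list, 4.46% of all promoters, 4.49% of genes called lower and 5.25% of genes called higher held the motif. RefSeq (GRCm38.p6) places these stretches at chr9:7445572-7445821 (plus strand) for Mmp3, chr9:7502092-7502341 (plus strand) for Mmp10 and chr9:7272264-7272513 (plus strand) for Mmp13, and the capitals mark the motif.
Mmp3: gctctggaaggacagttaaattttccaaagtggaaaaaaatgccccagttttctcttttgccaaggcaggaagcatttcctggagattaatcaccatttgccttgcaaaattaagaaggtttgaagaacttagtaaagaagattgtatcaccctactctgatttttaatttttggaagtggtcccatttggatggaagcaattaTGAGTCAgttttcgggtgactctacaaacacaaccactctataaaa
Mmp10: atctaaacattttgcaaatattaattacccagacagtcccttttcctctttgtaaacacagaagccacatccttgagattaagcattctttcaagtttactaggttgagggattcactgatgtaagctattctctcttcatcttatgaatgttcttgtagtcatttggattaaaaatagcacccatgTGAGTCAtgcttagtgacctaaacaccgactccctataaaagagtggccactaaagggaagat
Mmp13: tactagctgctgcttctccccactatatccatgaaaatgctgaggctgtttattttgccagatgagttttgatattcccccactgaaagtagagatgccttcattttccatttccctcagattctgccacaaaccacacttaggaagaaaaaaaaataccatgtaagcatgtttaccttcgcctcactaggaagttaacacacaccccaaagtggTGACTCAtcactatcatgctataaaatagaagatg

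Of 26 AP-1 and immediate-early genes 12 were lower and 6 higher, and 10 and 3 after subtraction. Fosl1, which encodes Fra-1, fell (0.669, 0.791 and 0.28 CPM against 12.5, 12.4 and 21 CPM, log2 change -4.78, SE 0.40, adjusted p = 8.2e-07), whereas Fosb (89.4, 86.4 and 95.5 CPM against 10.6, 9.94 and 3.37 CPM, log2 change 3.44, SE 0.34, adjusted p = 6.9e-06) and Jun (407, 382 and 558 CPM against 191, 155 and 127 CPM, log2 change 1.45, SE 0.19, adjusted p = 3.7e-05) rose. ICO held 212 ± 29.1 CPM of Fosb and 779 ± 93.4 CPM of Jun, and both remained called after subtraction. Of 17 genes of coagulation and plasmin control, 10 were lower and 2 higher, and 12 and 1 after subtraction. F3, the tissue factor that starts coagulation, was at 47.9, 13.7 and 13.4 CPM against 1032, 1009 and 1163 CPM (log2 change -5.49, SE 0.53, adjusted p = 1.4e-05). The Matrigel and plastic libraries did not overlap in F3. The urokinase gene Plau overlapped (adjusted p = 0.43).

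The TGF-beta pathway split evenly, 10 higher and 10 lower of 26. Tgfb3, a ligand, was at 42, 10.7 and 7.11 CPM in Matrigel and 301, 359 and 375 CPM on plastic (log2 change -4.19, SE 0.56, adjusted p = 0.00018). Tgfb1 did not pass the test at 4.08, 3.89 and 4.2 CPM against 2.57, 4.37 and 3.49 CPM. Inhba, the activin A subunit, was at 14.6, 11.5 and 5.1 CPM against 131, 154 and 179 CPM, and its antagonist Fstl3 at 6.08, 3.3 and 1.01 CPM against 95.7, 120.1 and 112 CPM. Values of Tgfb3, Inhba and Fstl3 in Matrigel ranked as the organoid shares do, without reaching plastic. Tgfbr3, the co-receptor betaglycan, was at 390.2, 574 and 632 CPM against 121, 98.9 and 68.2 CPM (log2 change 2.41, SE 0.22, adjusted p = 1.9e-06). Smad7, an inhibitory SMAD induced by the pathway, fell (26.7, 40.4 and 38.7 CPM against 57.6, 75.8 and 62.8 CPM, log2 change -0.94, SE 0.17, adjusted p = 0.00047). Of 26 BMP genes 10 were higher and 4 lower. Gdf2, which encodes BMP9, was at 588, 689 and 893 CPM against 56.4, 52.1 and 7.1 CPM, with 2221 ± 55.1 CPM at day 0 (log2 change 4.17, SE 0.61, adjusted p = 0.00028), and Bmp5 was at 313, 397 and 463 CPM against 132, 117 and 97.6 CPM. Bmper, a BMP-binding regulator, went from 233, 219 and 218 CPM on plastic to 6.22, 0.989 and 0.672 CPM (log2 change -6.50, SE 0.77, adjusted p = 8.6e-05). Bambi, a decoy receptor of the family, rose (149, 193 and 245 CPM against 52.6, 55.4 and 51.7 CPM, log2 change 1.83, SE 0.18, adjusted p = 3.2e-06), while the BMP target Id1 did not pass the test (adjusted p = 0.27).

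Growth factors of other families also divided by gene. Hgf, by which HSC act on hepatocytes, was at 826, 884 and 1151 CPM against 507, 389 and 230.2 CPM (log2 change 1.29, SE 0.27, adjusted p = 0.0013). Rspo3, an enhancer of Wnt signals, was at 533, 791 and 848 CPM against 256, 246 and 149.7 CPM (log2 change 1.68, SE 0.27, adjusted p = 0.00021). Igfbp3, an IGF carrier, was at 367, 513 and 582 CPM against 35.6, 31.8 and 41.6 CPM. These 3 secreted factors were higher in each Matrigel library than in each plastic library. Ereg, an EGF receptor ligand, went the other way at 20.1, 10.2 and 6.83 CPM against 587, 607 and 593 CPM (log2 change -5.66, SE 0.38, adjusted p = 4.4e-07), as did its receptor Egfr (59, 49.2 and 49.1 CPM against 153, 159.7 and 179 CPM) and Fgf2 (9.76, 11.3 and 13.6 CPM against 61.2, 93.5 and 66.2 CPM). Gas6, the ligand of the TAM receptors, rose from 14.9, 7.45 and 13.1 CPM to 417, 259 and 256 CPM, and ICO held 549 ± 23.6 CPM, while its receptor Axl fell from 1137, 1118 and 1292 CPM to 71, 39.2 and 54.3 CPM (log2 change -4.49, SE 0.23, adjusted p = 3e-08). Of 31 Wnt pathway genes 11 were higher and 8 lower. The lower count was 5 without Matrigel replicate 1 or 2 and 4 without plastic replicate 3; subtraction left 6 higher and 5 lower, and with Matrigel replicate 3 alone 8 were higher and 3 lower. Wls, which carries Wnt proteins to the surface, was lower (299.9, 297 and 342 CPM against 733, 716 and 635 CPM), and Wnt4 higher (23.8, 41.4 and 40.2 CPM against 12.8, 9.17 and 4.33 CPM).

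In the IL-6 family, 7 of 14 genes were lower and 2 higher, and most chemokines rose. Il6 was at 0.401, 0.33 and 0.056 CPM against 8.65, 13 and 9.08 CPM and Il11 at 2.27, 0.857 and 1.01 CPM against 14.8, 20.4 and 18.3 CPM, with log2 changes of -5.35 and -3.76 (SE 0.52 and 0.35, adjusted p = 3e-06 and 3.8e-06). The oncostatin M receptor Osmr fell (96.4, 63.2 and 134 CPM against 343, 345 and 279.8 CPM) and the leukaemia inhibitory factor receptor Lifr rose (241, 251 and 326 CPM against 139, 123 and 107 CPM). The pathway's feedback gene Socs3 overlapped (adjusted p = 0.64). Of 20 chemokines 14 were higher and 2 lower, but 7 and 3 after subtraction and 13 and 1 with Matrigel replicate 3 alone. Cxcl12, which retains CXCR4+ cells, was at 2671, 3612 and 4197 CPM against 1561, 1812 and 1344 CPM (log2 change 1.10, SE 0.25, adjusted p = 0.0022), with 3.84 ± 3.2 CPM in ICO. Cxcl14 fell from 218, 246 and 339 CPM to 5.75, 1.25 and 1.4 CPM (log2 change -6.66, SE 0.63, adjusted p = 1.5e-05). Vcam1, an adhesion receptor for leukocytes, was higher in each Matrigel library (1029, 1072 and 1568 CPM against 493, 363 and 345 CPM, log2 change 1.55, SE 0.21, adjusted p = 3.9e-05), and Icam1 overlapped (adjusted p = 0.09).

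Cell cycle genes depended on which libraries entered. With all 6, 16 of 33 were lower and 0 higher (median log2 change -0.71); without Matrigel replicate 1, which has the largest organoid share, 29 were lower (median -1.30), with 18 after subtraction and 25 with Matrigel replicate 3 alone. Mki67, which marks cycling cells, was at 24.9, 13.3 and 11.8 CPM in Matrigel and 16, 21.7 and 13.4 CPM on plastic and overlapped. Rrm2, which makes deoxynucleotides for DNA synthesis, was at 59.7, 23.9 and 24.6 CPM against 234, 209.7 and 246 CPM (log2 change -2.73, SE 0.33, adjusted p = 3.7e-05). Day 0 cells were lower than both cultures in the 2 genes, at 1.8 ± 0.28 CPM and 2.73 ± 0.638 CPM. Some targets of p53 were lower as well. Cdkn1a, the cell cycle inhibitor p21, was at 99.7, 64.7 and 55.2 CPM against 1071, 1143 and 1217 CPM and at 52.8 ± 6.03 CPM at day 0 (log2 change -4.03, SE 0.22, adjusted p = 3.6e-08). Mdm2, the ligase that limits p53, was at 87.8, 71.5 and 60.8 CPM against 422, 396 and 474 CPM (log2 change -2.61, SE 0.14, adjusted p = 3e-08). Eda2r, a death receptor induced by p53, was at 8.96, 6.26 and 3.53 CPM against 140.4, 129 and 144 CPM (log2 change -4.53, SE 0.37, adjusted p = 1.5e-06). For Cdkn1a, Matrigel replicate 3 stood near the day 0 mean, and replicates 1 and 2 lay above it. The list of p53 and senescence genes held 10 lower and 5 higher of 20. Cdkn2a was not among the genes tested.

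Genes of protein folding were lower as a group. Of 24 genes of the unfolded protein response and secretory pathway, 17 were lower and 1 higher (median log2 change -0.68), with 17 lower after subtraction and 14 with Matrigel replicate 3 alone. Hspa5, the ER chaperone BiP, was at 946, 757 and 987 CPM against 2053, 1517 and 2080.5 CPM (log2 change -1.13, SE 0.17, adjusted p = 0.00012), with 3494 ± 14.6 CPM at day 0. The member that rose was Herpud1, an ER degradation adaptor (369.8, 459.5 and 499 CPM against 266, 228 and 206 CPM, log2 change 0.87, SE 0.18, adjusted p = 0.0015). Xbp1 overlapped (adjusted p = 0.37). Of 14 heat shock genes 11 were lower and 1 higher (2 higher without Matrigel replicate 3, 0 after subtraction). Cryab, a small chaperone of muscle and of activated HSC, was at 61, 56.8 and 57.2 CPM against 633, 680.1 and 746 CPM (log2 change -3.61, SE 0.12, adjusted p = 9.3e-10). Genes of the ATF4 programme for serine, glycine and asparagine synthesis were lower for 15 of 21 and higher for 1 (median log2 change -1.56), and for 17 and 0 after subtraction or with Matrigel replicate 3 alone. Asns, asparagine synthetase, was at 115, 81.6 and 70.9 CPM against 455, 422 and 453 CPM (log2 change -2.38, SE 0.27, adjusted p = 1.8e-05). Mthfd2, of the mitochondrial one-carbon cycle, was at 65.2, 54.8 and 60.4 CPM against 189, 229.8 and 230.1 CPM (log2 change -1.90, SE 0.13, adjusted p = 2e-07). Both were nearly silent at day 0 (0.387 ± 0.41 CPM and 2.13 ± 0.323 CPM), so Matrigel lay between plastic and fresh cells. Atf4 itself did not pass the test (227, 201 and 219.7 CPM against 225, 288 and 248 CPM, adjusted p = 0.053).

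The ER stress response element, CCAAT and CCACG at a fixed distance, read on both strands, was found in 7 of 21 list members with an entry. It was in 0.113% of all promoters, 0.209% of genes called lower and 0.145% of genes called higher. The list was drawn up around the unfolded protein response, so its share does not test a role of the element in the change. Hspa5, the ER chaperone described above, is shown because it holds the element, at chr2:34771840-34772089 (plus strand) (RefSeq, GRCm38.p6), with the element in capitals.
Hspa5: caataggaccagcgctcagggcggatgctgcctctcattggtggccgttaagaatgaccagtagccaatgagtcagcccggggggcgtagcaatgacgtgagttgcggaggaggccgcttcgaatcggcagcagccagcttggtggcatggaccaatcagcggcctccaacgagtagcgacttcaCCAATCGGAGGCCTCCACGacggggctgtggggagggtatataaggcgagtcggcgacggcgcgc

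The respiratory chain is built from subunits encoded in the nucleus and in mitochondrial DNA, and the 2 sets moved apart. Of 36 nuclear genes, 32 were lower and 0 higher (median log2 change -0.92), with 32 lower without Matrigel replicate 1, 33 after subtraction and 27 with replicate 3 alone. Of 13 mitochondrially encoded genes, 13 were higher and 0 lower (median 1.46), with 12 higher after subtraction. Cycs, cytochrome c, was at 65.5, 55.8 and 57.7 CPM against 174, 176 and 163 CPM (log2 change -1.58, SE 0.15, adjusted p = 2.8e-06). Ndufb8, a complex I subunit, was at 143, 129 and 128 CPM against 283, 280.0 and 282 CPM (log2 change -1.13, SE 0.14, adjusted p = 2.1e-05). mt-Nd1, a complex I subunit made in the organelle, was at 4551, 6876 and 4169 CPM against 2422, 2176 and 1833 CPM (log2 change 1.22, SE 0.22, adjusted p = 0.00053). None of the 3 overlapped between substrates, and the highest Matrigel value of mt-Nd1 was in replicate 2. mt-Nd6, the subunit encoded on the opposite strand of the mitochondrial DNA, was at 193, 333 and 256 CPM against 63.2, 70.5 and 62.6 CPM (log2 change 1.94, SE 0.19, adjusted p = 2.5e-06). Sdha, a complex II subunit, did not pass the test (adjusted p = 0.17). The summed mitochondrially encoded level was 46005, 72914 and 45310.3 CPM in Matrigel, 25504, 24042 and 18562 CPM on plastic, 62271, 62708 and 50560.1 CPM at day 0 and 61468, 76343 and 76505 CPM in ICO. Each ICO sum lay above those of Matrigel replicates 1 and 3.

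**Figure D4:**
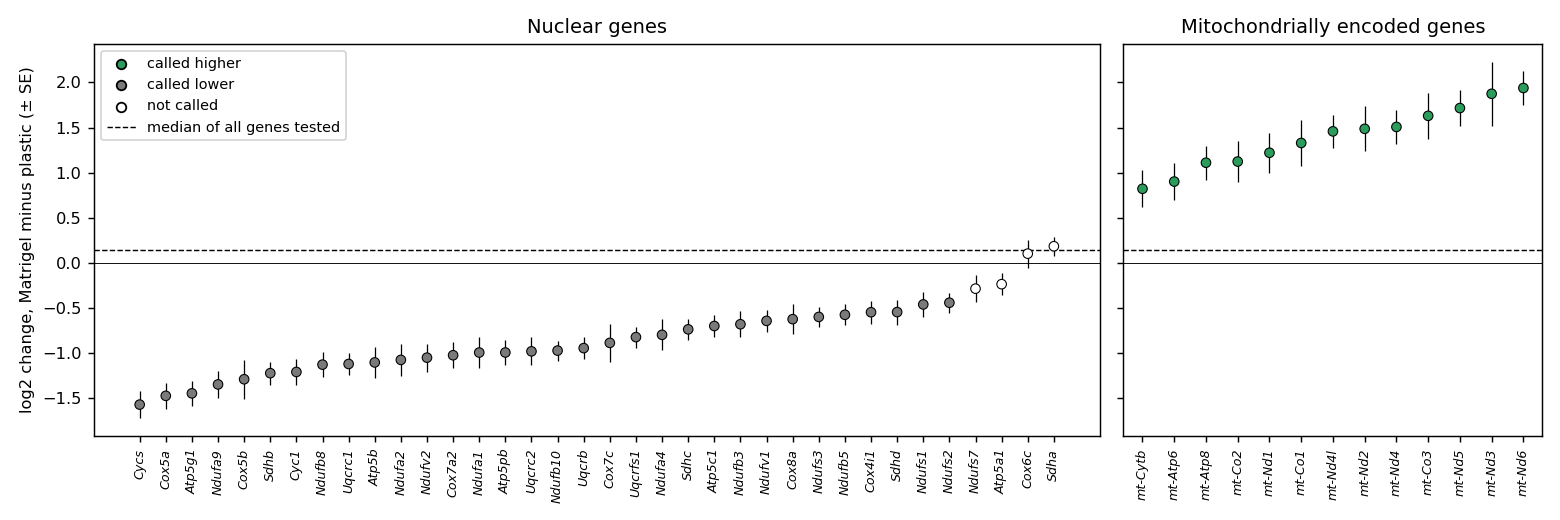
Fitted log2 change (Matrigel minus plastic) of every tested nuclear (left) and mitochondrially encoded (right) respiratory chain gene, with SE bars, ranked within each set. The dashed line marks the median over all genes tested, 0.14; 32 of 36 nuclear genes were called lower and 13 of 13 mitochondrial genes higher.

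Metabolic and stress genes outside the chain were mixed. Glycolysis and hypoxia genes were lower for 15 and higher for 8 of 27, with 3 higher after subtraction or with Matrigel replicate 3 alone. Hk2, the inducible hexokinase, was at 14.2, 8.97 and 6.44 CPM against 38.4, 45.6 and 42.5 CPM, and ICO held 66.3 ± 2.75 CPM (log2 change -2.16, SE 0.24, adjusted p = 7.4e-06). Srebf2, the sterol-sensing transcription factor, rose (83.2, 65.9 and 65.1 CPM against 27.2, 32.6 and 29.5 CPM, log2 change 1.20, SE 0.14, adjusted p = 1.6e-05). Of 26 oxidant defence genes, 12 were higher and 9 lower (median log2 change 0.38), and 10 and 10 after subtraction. Among the lower ones, Txnrd1, cytosolic thioredoxin reductase, was at 169, 111 and 116 CPM against 799, 798 and 1100.3 CPM (log2 change -2.82, SE 0.20, adjusted p = 2.1e-07). Hmox1, haem oxygenase, was at 122, 115 and 153 CPM against 429, 497 and 468 CPM (log2 change -1.89, SE 0.16, adjusted p = 1.1e-06). Their opposite was Txnip, an inhibitor of thioredoxin, at 284, 303 and 303 CPM against 78.7, 101 and 58.2 CPM (log2 change 1.84, SE 0.17, adjusted p = 2e-06). The lysosomal proteases split as well, with Ctsd higher (2326, 2261 and 2844 CPM against 918, 977 and 960.0 CPM) and the collagen-degrading Ctsk lower (29.4, 27.6 and 32.9 CPM against 80.9, 83.7 and 75 CPM).

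Antigen presentation genes were higher in Matrigel. Of 13 genes of MHC class I and its peptide loading, 11 were higher and 0 lower (median log2 change 2.00), and 11 were higher under each of the 3 other settings named above. H2-K1, a classical heavy chain, was at 1519, 1856 and 2326 CPM against 393, 391 and 286 CPM (log2 change 2.36, SE 0.20, adjusted p = 8.9e-07). H2-D1, the other classical chain, was at 4448, 5697 and 6952 CPM against 1136, 1137 and 887 CPM. B2m, the shared light chain, was at 3671, 4138 and 5385 CPM against 1717, 2359 and 1460.3 CPM (log2 change 1.20, SE 0.22, adjusted p = 0.00045). All Matrigel libraries lay above all plastic libraries in the 3 genes and below the day 0 means of 3374 ± 152, 12048 ± 864 and 12866 ± 684 CPM. Near-identical class I genes can share reads, so single members of the family are uncertain. Complement genes were higher for 14 of 17 and lower for 2 (median log2 change 3.80). The counts were 15 and 2 without Matrigel replicate 1, 13 and 2 after subtraction and 14 and 1 with Matrigel replicate 3 alone. C1ra, a protease of the classical pathway, was at 192, 194 and 286 CPM against 37.8, 26.9 and 17.1 CPM and 2.75 ± 0.4 CPM in ICO (log2 change 2.98, SE 0.28, adjusted p = 3.3e-06). C3, the central component, was at 342, 74.4 and 106 CPM against 0.726, 1.39 and 1.02 CPM, and ICO held 269 ± 26.5 CPM. Cd59a, which blocks the membrane attack complex, fell (12.1, 10.9 and 9.02 CPM against 24.8, 26.7 and 28 CPM). Interferon-stimulated genes were higher for 14 and lower for 4 of 26, with 7 lower without Matrigel replicate 3 and 2 with that library alone. Irf7 rose (20.7, 21.4 and 27.2 CPM against 6.14, 4.13 and 6.44 CPM) and Ifit2 fell (10.4, 10.7 and 14.4 CPM against 26.7, 30.5 and 26.9 CPM). Macrophages express class I and complement genes too, and the macrophage marker sums given above moved with these lists, their part not tested.

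Of 18 genes of the circadian clock and its output, 11 were higher and 1 lower (median log2 change 0.85). Dbp, a clock-driven transcription factor, was at 23.5, 39.1 and 43.6 CPM against 7.52, 4.28 and 1.08 CPM (log2 change 2.99, SE 0.49, adjusted p = 0.00051), and Nr1d1, a repressor arm of the clock, was at 64.2, 85.5 and 133 CPM against 31.2, 30.9 and 25.1 CPM (log2 change 1.65, SE 0.23, adjusted p = 8e-05). Clock itself overlapped (adjusted p = 0.33). The hour of harvest is not given for either group.

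Beyond the lists, the largest increases with little expression in ICO included genes that fresh HSC express. Inmt, an amine methyltransferase, was at 157, 347 and 279 CPM in Matrigel, 0.462, 0.913 and 0.421 CPM on plastic, and 344 ± 14.9 CPM in fresh cells (log2 change 8.65, SE 0.58, adjusted p = 9.4e-07). Ggt5, which converts leukotrienes, was at 115, 164 and 186 CPM against 1.19, 1.2 and 0.601 CPM and 262 ± 8.06 CPM. Adamts13, which cleaves von Willebrand factor and is made by HSC, was at 122, 186 and 171 CPM against 2.9, 1.83 and 0.301 CPM and 500.4 ± 6.83 CPM. In these genes each Matrigel library held many times the highest plastic value. Fam180a, Mamdc2, Wdr86 and Nr1h5 had log2 changes of 7.49, 6.53, 6.30 and 6.25. Acvr1c, an activin receptor, was at 11.4, 20.9 and 11.2 CPM against 0, 0 and 0.0601 CPM. Cd163, a macrophage scavenger receptor, was also among the 12 genes, at 15.1, 17.7 and 10.4 CPM against 0.066, 0 and 0.0601 CPM. Among the largest decreases outside the lists were Fez1, a neuronal transport adaptor (0.201, 0 and 0 CPM against 12.7, 12.9 and 15.2 CPM), Tnfsf18, a TNF family ligand (0.669, 0 and 0 CPM against 26.4, 44.5 and 32.1 CPM), Hs6st2, a heparan sulfate sulfotransferase (1.87, 0 and 0.056 CPM against 73, 84.8 and 82.4 CPM), Serpina12, a serpin (0.468, 0 and 0 CPM against 23.8, 19.3 and 22.3 CPM), and Ptchd4 (0.535, 0 and 0 CPM against 18.3, 21.6 and 24.8 CPM). Day 0 cells held 0.25, 0, 0, 2.17 and 0.182 CPM of these 5 genes on average, so day 0 and Matrigel were both low for them.

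**Figure D5:**
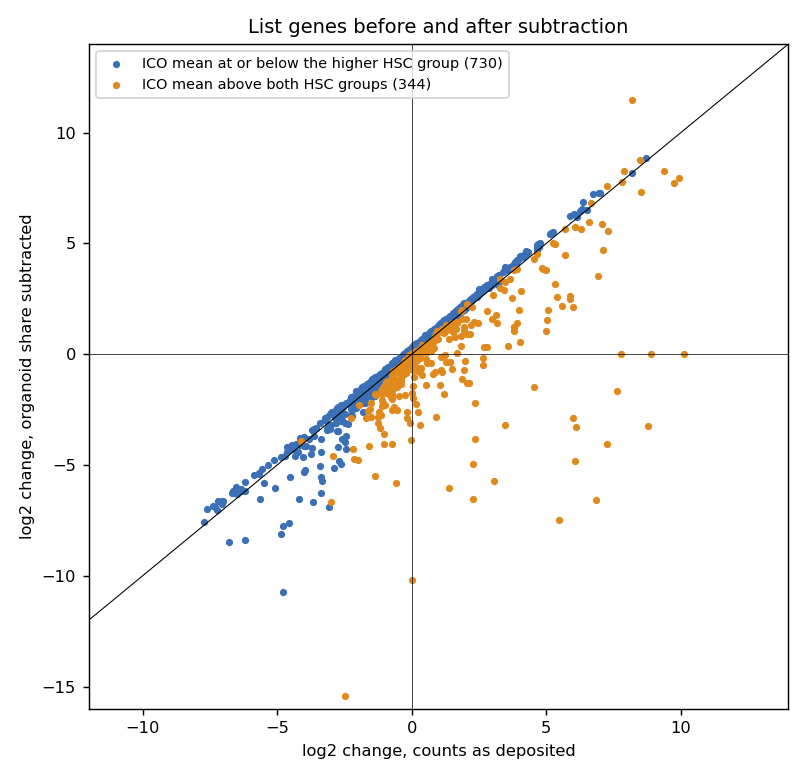
Fitted log2 change of all tested list genes with the counts as deposited (x axis) and after subtraction of the organoid share (y axis), coloured by whether the mean in ICO is above (orange) or below (blue) the mean of the higher HSC group. Of 1074 genes, 85 lie more than 2 log2 units under the diagonal, 71 of them genes with a higher mean in ICO than in either HSC group.

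The day 0 mean was nearer to the Matrigel mean than to the plastic mean, on a log2(CPM + 0.5) scale, for 65.6% of the genes called higher and 72.7% of those called lower, against 62.6% of all genes tested. In the lists the share was 21 of 25 for stellate identity, 25 of 35 for contractile genes, 12 of 13 for mitochondrially encoded genes, 12 of 13 for MHC class I and 16 of 17 for complement. It was lower, so that the day 0 mean of most members was nearer to plastic, for heat shock (5 of 14), the unfolded protein response (8 of 24), cholesterol synthesis (8 of 26), laminins and basement membrane (6 of 15), integrins (13 of 30), PDGF (3 of 7) and cadherins (6 of 13). The day 0 libraries also held markers of other liver cells. Hepatocyte markers summed to 28339, 27929.5 and 29040 CPM in them, and endothelial markers to 3948, 3938 and 3930 CPM. The part of such cells in the day 0 levels, including those of complement genes, was not tested.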

How the data were processed

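Bulk RNA-seq libraries of mouse HSC and ICO were taken as deposited. The authors deposited 1 table of estimated counts per gene, with no normalization. Per the submitters' processing notes kallisto 0.46.1, DESeq2 1.36.0 and GRCm39 were used, without their roles; how transcripts were summed to genes, and any filter, is not given in the sources used here. Of 35667 genes, 43 rows repeat a symbol and were kept apart by their identifier. Libraries were grouped by their labels.

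Estimated counts were rounded and fitted with edgeR 4.0.16 (R 4.3.3, limma 3.58.1; TMM scaling, filterByExpr, robust quasi-likelihood fit) over the 12 HSC libraries, which share 1 estimate of the spread, with group as the term and no replicate block. P-values were adjusted by Benjamini-Hochberg over the 17020 genes tested and called at 0.05. SE is the log2 change divided by the square root of F. CPM uses TMM factors from all 18 libraries.

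The organoid share of a library is the median, over 15 cholangiocyte markers (each ICO library at 100 CPM or more, each plastic and day 0 library under 5 CPM), of CPM relative to the ICO mean; subtraction removed that share of the ICO profile from the counts, with negative results set to 0. Motifs were searched in 250 upstream bases of RefSeq promoters (GRCm38.p6, 12179 tested genes matched by symbol). The fit was tested on simulated data.

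Genes were named by a rule that took 328 genes: in each list the anchor genes and the called genes with the largest change each way at 10 CPM or more, plus the 12 largest increases and 12 largest decreases that did not overlap and kept their call without Matrigel replicate 1 and after subtraction (increases only with an ICO mean under 10% of the lowest Matrigel library; clone names, pseudogenes and receptor segments left out); the text describes a subset of them, and a few genes are not reported here. Adamtsl2, Cygb, Lyz2, Vcl, Vsig4, Clec4f and Mmp12 lie outside the rule and were chosen after their values were seen. The comparison and the lists were chosen with earlier results of these data known. Alternatives were RLE scaling, other filters, DESeq2 1.42.0, 6 or 18 libraries, a replicate block, each replicate left out, and the organoid share subtracted or as a covariate. Tables and plots were made with Python 3.11.15 (numpy 2.4.6, pandas 2.3.3, matplotlib 3.10.9).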

Additional observations from a re-analysis of the deposited data

How the results depend on the processing

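The counts of 5081 genes higher and 4283 lower stayed within 1.5 times under RLE scaling, no filter, a stricter filter, DESeq2, only the 6 libraries compared, all 18 libraries, subtraction, and the organoid share as a covariate, from 3588 to 5264 higher and 3337 to 4589 lower. Leaving out 1 library gave 4167 to 4851 higher and 3645 to 4378 lower. With Matrigel replicate 3 alone, a setting chosen after seeing the data, 3362 genes were higher. Restriction to genes with an ICO mean under 10% of that of the higher HSC group left 876 higher and 570 lower, which by construction covers fewer genes. The stricter filter moved the log2 changes of the genes tested in both fits by a median of 0.12, and the cause of this shift was not tested. Same-numbered Matrigel and plastic libraries did not deviate together (correlations across genes of -0.07, 0.06 and -0.05). Whether the numbers pair them cannot be read from this, as the organoid share differs among the Matrigel libraries only. A replicate block gave 4722 higher and 4145 lower. Of 174 tested genes named in the text, 151 were called, 144 in every setting fitted and 150 with 1 sign throughout. The exception in sign was Fn1, at -0.36 after subtraction, where ICO holds more of it than either HSC group. The naming rule favoured called genes with large changes. For the largest increases and decreases it also required a call kept without Matrigel replicate 1 and after subtraction. The stability of the named genes is therefore partly built in and does not stand for all called genes. Among all called genes, 3707 of 5081 higher and 3723 of 4283 lower kept their call in both of these settings. Besides the genes whose lost calls stand beside their values, Adamtsl2 was not called with only the 6 libraries (adjusted p = 0.06), Cxcl12 not with all 18 libraries (adjusted p = 0.11), and Clec4f not without Matrigel replicate 2 or with the block. Plin2 was called without Matrigel replicate 3, plastic replicate 1 or plastic replicate 2, Atf4 without plastic replicate 1, Icam1 without Matrigel replicate 1 or 3, Foxf1 without Matrigel replicate 1 and Mmp12 without plastic replicate 3. The cause was not tested. Not every changed call is named here. Among the genes named in the text, all 18 libraries lost 4 calls and added 3, and the block lost 3 and added 1. Subtraction lost 2, turned the sign of 1 and added 5. The covariate lost 2 and added 4, DESeq2 added 3 and RLE scaling added 2. Limits are that Matrigel, the third dimension, the sort and any exposure of the HSC to organoids cannot be told apart. The part of macrophage transcripts was not tested, and 3 libraries a group limit which changes can be detected.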
